A study of Mus musculus with 4 samples.

Results

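The genes described here are 40 genes of autophagy, taken by gene symbol from a fixed list and found in a gene-level RNA-seq table of 18560 genes from activated mouse CD4+ T cells. All 40 had a line in the table, all 40 had counts in every library, and all 40 passed the filter on low counts that left 12816 genes for testing. The libraries were 2 of Setd2 knockout cells (replicates 9 and 12, genotype label Setd2-CD4 cre) and 2 of wild type cells (replicates 1 and 6). In both groups the cells were naive CD4+ T cells from C57BL/6 spleen, activated through CD3 and CD28 to give Th0 cells, which are activated helper cells not steered toward an effector type. The Cre recombinase is driven by Cd4 regulatory sequence, which is active in thymocytes before CD4 and CD8 T cells part, and the extent of Setd2 deletion in these cells is not given in the labels. Whether the wild type mice carried Cre or the floxed allele, and the age of the animals, are not given in the labels. The duration of stimulation is ambiguous, since a 48 closes each sample title while the design entry gives 2 days and the treatment entry 3 days. Whether each replicate was a different animal is not labelled, and p-values therefore reflect variation among these 4 libraries alone, and that variation could be technical.

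Autophagy encloses cytoplasm in a double membrane, the autophagosome, and delivers it to the lysosome for breakdown. The ULK kinase complex starts the process, a phosphatidylinositol 3-kinase complex built on Becn1 marks the membrane, ATG2 and ATG9 supply lipid, and a ubiquitin-like conjugation system attaches the small proteins of the ATG8 family (LC3 and GABARAP) to it. Cargo receptors such as Sqstm1 bind ATG8 proteins on one side and cargo on the other. In T cells autophagy is induced by activation and is known for its part in survival, memory and the clearing of mitochondria. Setd2, the gene targeted in the knockout, trimethylates lysine 36 of histone H3 over transcribed gene bodies.

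The libraries held 17284613 and 20418766 counts in knockout and 19663302 and 18748194 in wild type cells. All 8 general T cell markers were present in every library and summed to 2639 and 2796 CPM (TMM-scaled counts relative to library size) in knockout, against 3239 and 3325 CPM in wild type libraries. Markers of other cell types were also read. B cell markers, of which 5 of 5 had counts in every library, summed to between 192 and 335 CPM in knockout libraries. In wild type libraries they summed to between 179 and 262 CPM. The pair of CD8 genes summed to 432 and 323 CPM in knockout and to 260 and 330 CPM in wild type libraries. Cd4, counted among the T cell markers, stood at 403 and 444 CPM in knockout and at 464 and 575 CPM in wild type libraries. In knockout replicate 9 the CD8 pair thus summed to more than Cd4, and the share of CD8 T cells in the results was not tested. Myeloid, NK, erythroid, mast cell and dendritic cell markers each summed to at most 25.8 CPM in any library, and 7 of 8, 4 of 4, 3 of 5, 1 of 4 and 3 of 5 of them had counts in all 4 libraries. Mpo was at 0 in both wild type libraries, Hba-a1 in knockout replicate 9 and wild type replicate 1, and Hbb-bt in knockout replicate 9. Fcer1a was at 0 in both wild type libraries, Cpa3 and Mcpt8 in 1 wild type library each, Siglech in all but knockout replicate 9 and Clec9a in both knockout libraries. Besides the T cell markers, the groups did not overlap for mast cell markers (3.54 and 2.89 CPM in knockout, against 0.559 and 1.011 CPM in wild type libraries) or dendritic cell markers (10.8 and 11.2 against 12.8 and 16.9 CPM), and the part of these markers in the results was not tested. In such bulk libraries, a change in the share of cells that express a gene and a change in its RNA per cell cannot be told apart. Setd2 itself stood at 127 and 113 CPM in knockout and 157 and 174 CPM in wild type libraries (log2 fold change -0.47, SE 0.21, edgeR adjusted p 0.421). With the trend on gene length removed (described with the length results), its log2 fold change was -0.03 (SE 0.19), and a gene-level count does not show whether exons were removed.

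Gabarapl1 had the largest difference of the 40 autophagy genes, 2.14-fold higher in knockout cells, and most of the others lay within about 2 SE of no difference. Over the 40 genes the median log2 fold change, knockout over wild type, was -0.04, beside -0.0024 over all genes tested. It was above 0 for 18 members, or 45%, beside 49.8% of all genes. In the quasi-likelihood F test of edgeR, two-sided and adjusted over all 12816 genes, 0 of 40 members passed at 0.05, where 0.00780% of all genes passed. At an unadjusted edgeR p under 0.05 there were 2 of 40, Gabarapl1 higher (2.5% of members, beside 6.23% of all genes) and Uvrag lower (2.5%, beside 5.73%). DESeq2 and limma-voom each also had 1 member higher and 1 lower at that unadjusted level, where DESeq2 had 6.59% of all genes higher and 6.48% lower and limma-voom 6.70% and 6.41%. DESeq2 called 1 of 40 after adjustment, Gabarapl1, against 1.44% of all genes, and limma-voom called 0 of 40, with 0.00780% of all genes called. An absolute log2 fold change of at least 0.5 was found in 4 members (10%), beside 32.1% of all genes. The groups did not overlap for 21 members (52.5%), beside 49.7% of all genes. Of these, 9 had both knockout libraries above (25.4% of all genes did) and 12 had both below (24.3% of all genes), so by that measure the list stood near the background. The SE of a member's log2 fold change had a median of 0.23. For 29 members the 95% interval lay within -1 and 1, and for all 40 it reached past 0.5 in at least one direction, so differences of that size were not excluded for any of them.

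**Figure D1:**
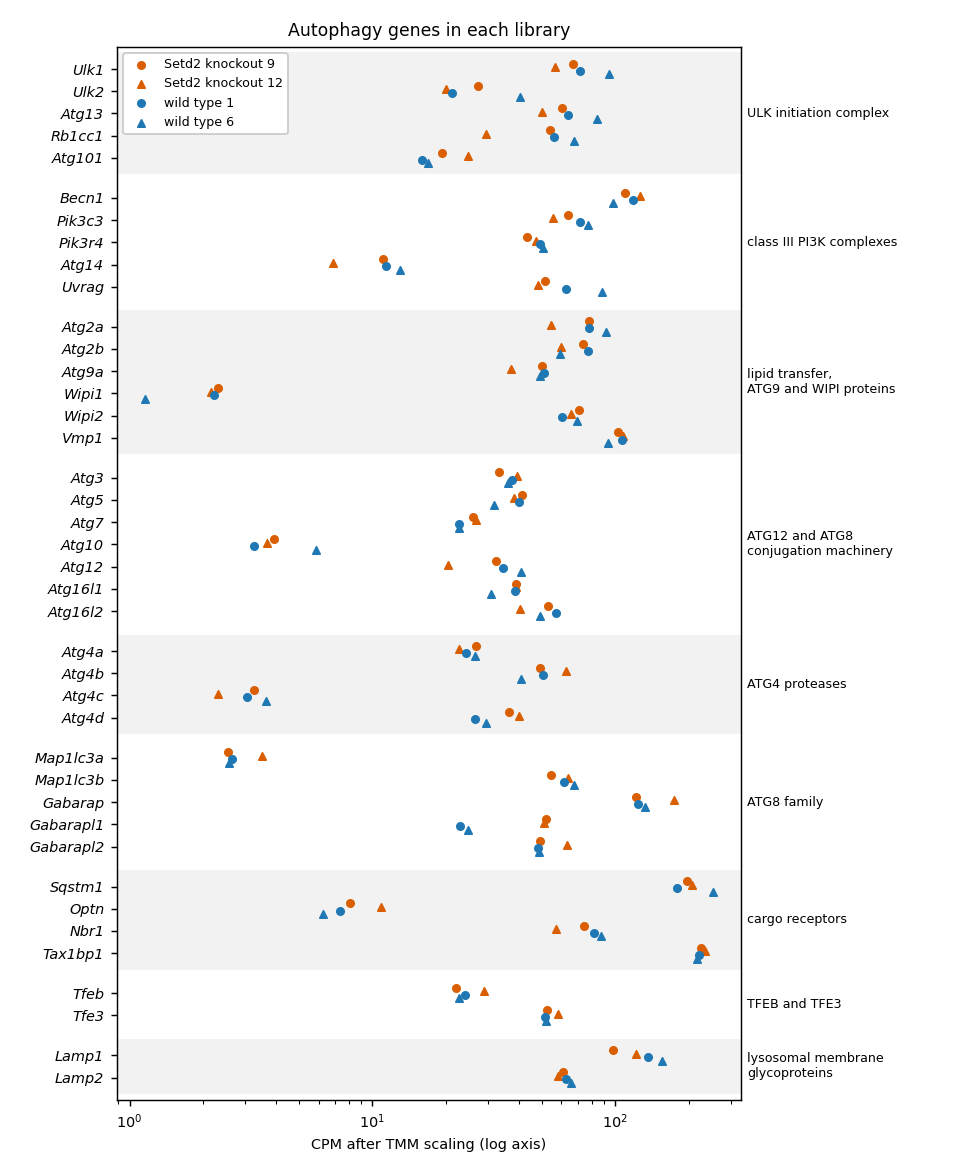
CPM after TMM scaling (log axis) of the 40 autophagy genes in the Setd2 knockout libraries (orange) and the wild type libraries (blue), each point 1 library, grouped by role. Gabarapl1 stands apart, with 51.7 and 50.8 CPM in knockout against 23.0 and 24.8 CPM in wild type libraries.

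The ATG8 family is attached to the autophagosome membrane and recruits cargo receptors and fusion factors. Gabarapl1 (gene 57436, GRCm38.p6 chromosome 6, 129533192 to 129542331) reached 51.7 and 50.8 CPM in knockout libraries and 23.0 and 24.8 CPM in wild type libraries, or 51.2 ± 0.585 against 23.9 ± 1.29 CPM (SD, n = 2 each). Both knockout libraries were more than 2-fold above the higher wild type library, and the pairs lay close together within each group. The fold was 2.14 (log2 1.10, SE 0.21, 95% interval 0.62 to 1.58), with an unadjusted edgeR p of 0.000835. The adjusted p was 0.261 in edgeR, 0.303 in limma-voom and 0.00605 in DESeq2, so the gene passed in DESeq2 alone of these tools. Without the filter on low counts it also passed in edgeR (adjusted p 0.0377). With any single library left out the log2 fold change stayed between 1.05 and 1.16. Its expected counts were whole numbers in every library, so RSEM had divided no fractional reads between it and its relatives.

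Gabarap, the most abundant member of the family and of the whole list, stood at 121 and 175 CPM in knockout and 124 and 133 CPM in wild type libraries (log2 0.21, SE 0.24). Gabarapl2 stood at 48.9 and 63.1 against 48.2 and 48.3 CPM (0.21, SE 0.22). Map1lc3b, the LC3 form most used as an autophagosome marker, stood at 54.2 and 63.6 against 61.6 and 67.5 CPM (-0.13, SE 0.21), and Map1lc3a was under 4 CPM in every library (0.22, SE 0.48). For these 4 genes knockout replicate 12 held the highest value in 3, and the groups overlapped in 3. Levels between genes were compared in FPKM, fragments scaled by length and library size. The order was Gabarap (109 and 149.9 FPKM in knockout, 112 and 127 in wild type), Gabarapl2 (50.8 and 62.1, against 50.1 and 53.1), Map1lc3b (31.7 and 35.3, against 36.1 and 41.8), Gabarapl1 (29.1 and 27.2, against 13.0 and 14.8) and Map1lc3a (2.48 and 3.23, against 2.57 and 2.65). Gabarapl1 thus made up 13.0 and 9.80% of the family's summed FPKM in knockout libraries, against 6.07 and 6.20% in wild type libraries. The trend on gene length was not removed from this share. Gabarap and Gabarapl2 are shorter (effective lengths of 1107 and 962 bases) than Gabarapl1 (1771 bases). The ratio of Gabarapl1 to Map1lc3b, taken within each library and so free of the scaling between libraries, was 0.919 and 0.772 in knockout and 0.360 and 0.355 in wild type cells. Once the trend on gene length was removed, Map1lc3b, which was below 0 as counted, and Gabarap, Gabarapl2 and Map1lc3a, which were above 0, all had log2 fold changes below 0 (from -0.31 to -0.10), and Gabarapl1 was at 0.94 (SE 0.18).

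**Figure D2:**
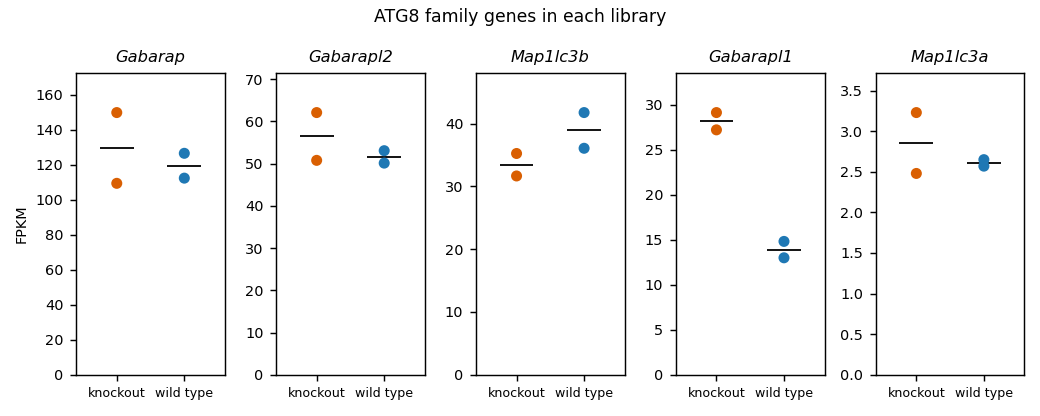
FPKM of the 5 ATG8 family genes in the knockout (orange, left) and wild type (blue, right) libraries, each point 1 library and each line the mean of 2, with a separate scale from 0 for each gene. The pairs of points are clearly separated for Gabarapl1, at 29.1 and 27.2 FPKM in knockout against 13.0 and 14.8 FPKM in wild type, and lie closer for the other genes.

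The promoter window of Gabarapl1 (RefSeq, GRCm38.p6, chr6:129532942-129533241, plus strand, from 250 bases before the start of transcription to 50 after it) is shown because this gene carries the largest difference in the list. It was searched with all other windows for CACGTG, the E-box core that TFEB and TFE3 bind in lysosomal genes and that reads the same on both strands, and for GTAAACA on either strand, a forkhead element bound by FOXO factors. Neither exact string was in this window, and capitals would mark the E-box. Other spellings of the forkhead element were not searched. The window does hold ATAAACA, which differs from the searched string in its first base, and the share of all windows with that spelling was not counted.
Gabarapl1: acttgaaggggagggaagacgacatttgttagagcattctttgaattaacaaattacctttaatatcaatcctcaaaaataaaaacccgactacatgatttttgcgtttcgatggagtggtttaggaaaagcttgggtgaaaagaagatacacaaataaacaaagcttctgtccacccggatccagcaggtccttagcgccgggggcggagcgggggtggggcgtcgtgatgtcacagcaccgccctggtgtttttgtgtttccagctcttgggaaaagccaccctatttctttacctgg

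Among the cargo receptors, Sqstm1 (p62), which carries ubiquitylated cargo and is itself consumed by autophagy, stood at 198 and 207 CPM in knockout libraries and at 179 and 251 CPM in wild type libraries (log2 -0.09, SE 0.24). The wild type libraries lay on either side of the knockout pair, so the groups overlapped. Tax1bp1, a receptor for ubiquitylated proteins and bacteria, was even across libraries at 224 and 234 against 221 and 217 CPM (0.06, SE 0.20). Nbr1, which acts beside Sqstm1, stood at 74.0 and 56.9 against 81.4 and 87.0 CPM (-0.36, SE 0.22). Optn, a receptor for mitochondria, was a low member at 8.06 and 10.8 against 7.37 and 6.27 CPM (0.47, SE 0.32). With knockout replicate 12 left out, the log2 fold change of Nbr1 was -0.18 and that of Optn 0.25. With knockout replicate 9 left out, they were -0.54 and 0.69. In FPKM Sqstm1 was between 20.4 and 42.5 times Optn, depending on the library.

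In the ULK complex the 4 longer genes were lower in knockout cells on average and the short one higher. Rb1cc1 (FIP200), the scaffold of the complex on chromosome 1 (6214634 to 6276375), was counted at 53.7 and 29.3 CPM in knockout libraries and at 56.1 and 67.5 CPM in wild type libraries (log2 -0.58, SE 0.31, edgeR adjusted p 0.449). Knockout replicate 12 was far below the other libraries, while knockout replicate 9 was close to wild type replicate 1. The log2 fold change of Rb1cc1 was -0.20 with knockout replicate 12 left out and -1.06 with knockout replicate 9 left out. The kinase gene Ulk1 stood at 66.7 and 56.4 against 71.8 and 94.4 CPM (-0.43, SE 0.23), and Atg13, the adaptor that binds the kinase to Rb1cc1, at 60.4 and 49.7 against 63.8 and 83.7 CPM (-0.42, SE 0.24). For both, wild type replicate 6 was the highest library and knockout replicate 12 the lowest. With wild type replicate 6 left out, Ulk1 was at -0.22 and Atg13 at -0.21 on the log2 scale, and with wild type replicate 1 left out at -0.62 and -0.60. Ulk2, the second kinase, overlapped between groups (27.2 and 20.02 against 21.3 and 40.6 CPM, log2 -0.39, SE 0.33), and its log2 fold change was 0.15 without wild type replicate 6. Atg101, which stabilises Atg13, stood at 19.3 and 24.8 against 16.1 and 16.9 CPM (0.42, SE 0.24). Its log2 fold change was 0.23 with knockout replicate 12 left out and 0.61 with knockout replicate 9 left out. Ulk1 exceeded Ulk2 in FPKM in every library, by 2.40 and 3.41 times in knockout and by 3.25 and 2.23 times in wild type cells.

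Uvrag was the member with the largest negative fold change. The class III phosphatidylinositol 3-kinase Pik3c3 works with Pik3r4 and Becn1 in 2 alternative complexes, one with Atg14 that builds autophagosomes and one with Uvrag that acts on endosomes and in autophagosome maturation. Uvrag (gene 78610, chromosome 7, 98886742 to 99141167) had 51.5 and 47.9 CPM in knockout libraries, against 62.4 and 88.1 CPM in wild type libraries. The groups did not overlap, and wild type replicate 6 was well above replicate 1. The log2 fold change was -0.60 (SE 0.24, 95% interval -1.15 to -0.04), with an unadjusted edgeR p of 0.0378 and an edgeR adjusted p of 0.413. Leaving out wild type replicate 6 gave -0.33, and leaving out replicate 1 of that group gave -0.83. Atg14 was low, at 11.1 and 6.86 against 11.3 and 13.0 CPM (-0.44, SE 0.32), with a log2 fold change of -0.13 when knockout replicate 12 was left out and -0.81 when knockout replicate 9 was. The ratio of Uvrag to Atg14 in FPKM overlapped between groups (4.68 and 7 against 5.53 and 6.78). Becn1 was the most abundant gene of these complexes, at 109.8 and 126 against 118 and 97.5 CPM (0.13, SE 0.22), and was between 2.49 and 3.87 times Pik3c3 in FPKM. Pik3c3 stood at 64.0 and 55.5 against 71.5 and 77.2 CPM (-0.32, SE 0.21), and Pik3r4 at 43.1 and 47.1 against 48.8 and 50.1 CPM (-0.13, SE 0.21).

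The promoter window of Uvrag (RefSeq, GRCm38.p6, chr7:99141095-99141394, minus strand, written in the direction of transcription) is shown as that of the other member with an unadjusted p under 0.05. It held neither of the exact strings searched.
Uvrag: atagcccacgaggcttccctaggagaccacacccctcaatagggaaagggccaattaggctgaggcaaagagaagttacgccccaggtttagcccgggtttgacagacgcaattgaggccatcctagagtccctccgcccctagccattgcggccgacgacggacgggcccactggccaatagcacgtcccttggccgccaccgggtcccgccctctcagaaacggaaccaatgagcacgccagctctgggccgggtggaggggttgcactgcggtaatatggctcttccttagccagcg

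The genes that supply lipid and shape the membrane had log2 fold changes between -0.36 and 0.40, none with an unadjusted edgeR p under 0.05. Vmp1, an endoplasmic reticulum protein needed to release the growing membrane, was the highest of them per length and stood at 102 and 107 CPM in knockout and at 106 and 93.6 CPM in wild type libraries (log2 0.07, SE 0.21). Wipi2, which reads the phosphoinositide mark and recruits Atg16l1, had a log2 fold change of 0.07 (SE 0.21), and its low paralogue Wipi1, between 1.16 and 2.32 CPM, one of 0.40 (SE 0.58). The lipid transfer genes Atg2a (-0.36, SE 0.25) and Atg2b (-0.03, SE 0.24) and the scramblase gene Atg9a (-0.20, SE 0.23) were below 0. Of these 6 genes, Atg2a was the 1 whose groups did not overlap. The gap was narrow, between 77.6 CPM in knockout replicate 9 and 78.2 CPM in wild type replicate 1. The log2 fold change of Atg2a was -0.12 with knockout replicate 12 left out and -0.62 with knockout replicate 9 left out.

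In the conjugation machinery Atg12 had the largest difference. Atg12, the ubiquitin-like protein joined to Atg5, stood at 32.1 and 20.4 CPM in knockout libraries and at 34.5 and 40.8 CPM in wild type libraries (log2 -0.52, SE 0.27, edgeR adjusted p 0.443). Its knockout replicate 12 was the low library, and without it the log2 fold change was -0.23, against -0.86 without knockout replicate 9. Atg3, the enzyme that passes ATG8 proteins to lipid and the most abundant gene of the group per length, stood at 33.2 and 39.5 against 37.5 and 36.1 CPM (-0.02, SE 0.21). Atg7, the activating enzyme, was slightly above wild type in both knockout libraries, at 25.9 and 26.8 against 22.7 and 22.6 CPM (0.22, SE 0.21). Atg5 (0.14, SE 0.22), Atg16l1 (0.17, SE 0.22), Atg16l2 (-0.18, SE 0.23) and the low Atg10 (-0.26, SE 0.45) each lay within 1 SE of 0. Among the ATG4 proteases, which trim ATG8 proteins and release them from membrane, Atg4d stood at 36.5 and 39.99 against 26.5 and 29.4 CPM (0.45, SE 0.21, unadjusted edgeR p 0.0655). Its groups did not overlap and its counts were steady within each group. Atg4b, the main protease, stood at 48.8 and 62.3 against 50.3 and 40.7 CPM (0.29, SE 0.23). Its log2 fold change was 0.11 with knockout replicate 12 left out and 0.48 with knockout replicate 9 left out. Atg4a (-0.04, SE 0.22) and Atg4c (-0.27, SE 0.47, under 4 CPM) were also measured.

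Tfeb and Tfe3, the transcription factors that switch on lysosomal and autophagy genes when mTORC1 is low, had log2 fold changes within 1 SE of 0. Tfe3 stood at 52.5 and 57.9 CPM in knockout and at 51.1 and 51.6 CPM in wild type libraries (log2 0.10, SE 0.20), and Tfeb at 22.0 and 28.9 against 23.998 and 22.8 CPM (0.12, SE 0.23). Transcript levels do not report the location of these proteins, through which they are mainly controlled.

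Lamp1, a heavily glycosylated protein of the lysosomal membrane and a known TFEB target, was lower in both knockout libraries. Lamp1 (gene 16783, chromosome 8, 13159161 to 13175338) had 98.0 and 122 CPM in knockout and 136 and 156 CPM in wild type libraries, and the groups did not overlap. The log2 fold change was -0.41 (SE 0.22) with an edgeR adjusted p of 0.451. It was -0.24 with knockout replicate 9 left out and -0.57 with knockout replicate 12 left out. Lamp2, which is needed for autophagosomes to fuse with lysosomes, stood at 60.7 and 57.8 against 62.3 and 65.8 CPM (-0.11, SE 0.20). The ratio of Lamp1 to Lamp2 in FPKM was 1.90 and 2.38 in knockout and 2.64 and 2.95 in wild type cells. The effective length of Lamp1 was 2235 bases, beside a median of 2824 bases for all genes tested. With the length trend removed, the log2 fold change of Lamp1 was -0.51 (SE 0.18, unadjusted edgeR p 0.0268, edgeR adjusted p 0.416).

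Promoter windows were found for 34 of the 40 genes (43 windows, since some genes have several starts), and 5 of the 34 genes held CACGTG, in 11.6% of the members' windows beside 7.15% of all 32851 windows. GTAAACA on either strand was in none of the members' windows, beside 3.65% of all windows. Lamp1 held 4 copies, between 61 and 15 bases before the start, which 0.0244% of all windows match or exceed, and Atg3 held 2. Lamp1 (chr8:13158911-13159210, plus strand) is printed in full, and each other site with 12 bases on either side, because these members hold the E-box core. A match to the core does not show which factor binds there. Capitals mark CACGTG. The sites lie at chr16:45158723-45158752 and chr16:45158746-45158775 (Atg3), chr10:44268313-44268342 (Atg5) and chr6:114670952-114670981 (Atg7), all on the plus strand, and chr14:47568418-47568447 (Atg14, minus strand). The Atg7 site belongs to an alternative start inside the gene, which runs from 114643127 to 114860604, and not to its outermost start. The log2 fold changes of these 5 genes were -0.41 for Lamp1, -0.02 for Atg3, 0.14 for Atg5, 0.22 for Atg7 and -0.44 for Atg14, so genes with the element lay on both sides of 0.
Lamp1: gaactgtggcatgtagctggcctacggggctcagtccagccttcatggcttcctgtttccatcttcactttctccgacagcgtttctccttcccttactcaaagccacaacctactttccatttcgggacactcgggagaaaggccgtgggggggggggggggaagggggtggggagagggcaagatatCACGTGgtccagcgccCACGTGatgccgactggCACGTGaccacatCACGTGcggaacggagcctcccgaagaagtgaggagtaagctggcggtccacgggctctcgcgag
Atg3, distal: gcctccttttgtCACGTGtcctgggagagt
Atg3, proximal: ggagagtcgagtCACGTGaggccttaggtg
Atg5: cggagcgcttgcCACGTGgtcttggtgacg
Atg7: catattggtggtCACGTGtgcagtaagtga
Atg14: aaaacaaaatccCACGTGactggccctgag

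Fold changes followed effective gene length over the whole table. This is a length of the transcript and not of the genomic span with introns, whose relation to the fold changes was not examined. Uvrag, for example, spans 254426 bases and has an effective length of 3467 bases. Across all genes tested the median log2 fold change ran from 0.38 for genes with an effective length up to 1000 bases to -0.48 for genes over 8000 bases. The autophagy genes had a median effective length of 2765 bases, close to the 2824 bases of all genes tested, but they spread from 962 (Gabarapl2) to 6622 bases (Rb1cc1). Of the 10 members up to 2000 bases, 7 had a positive log2 fold change with a median of 0.21, beside a median of 0.26 for all genes of that length. Of the 8 members over 4000 bases, 1 had a positive value (Wipi2) with a median of -0.36, beside -0.27 for all genes of that length. The trend was steepest in knockout replicate 12 and wild type replicate 6. At 8000 bases the fitted log2 deviation was 0.07 in knockout replicate 9 and -0.45 in knockout replicate 12, against 0.14 in wild type replicate 1 and 0.28 in wild type replicate 6. Of the 12 members with both knockout libraries below both wild type libraries, wild type replicate 6 was the highest library for 12 and knockout replicate 12 the lowest for 10. Among all genes with that pattern, wild type replicate 6 was the highest library for 69.9% and knockout replicate 12 the lowest for 74.4%. Over the whole list 12 members were highest in wild type replicate 6 and lowest in knockout replicate 12, or 30% beside 20.8% of all genes.

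**Figure D3:**
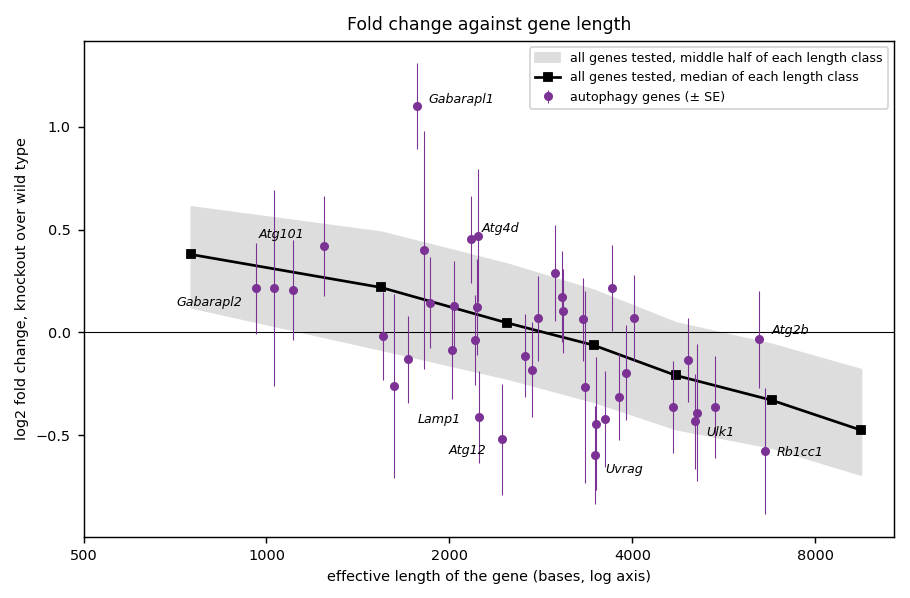
Log2 fold change (knockout over wild type) of the 40 autophagy genes (purple, ± SE) against effective gene length in bases (log axis), with the median (black squares) and interquartile range (grey) of all genes tested in each length class. The line falls from 0.38 up to 1000 bases to -0.48 over 8000 bases. Of the members over 0.5 in size with the length trend removed, Gabarapl1 lies above the line and Atg12, Uvrag and Lamp1 below it.

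With a smooth trend on length removed from each library, the median of the 40 genes was -0.10, beside -0.0022 for all genes, and 17 were above 0, or 42.5% beside 49.9% of all genes. The members of the ULK complex moved toward 0, with Ulk1 at -0.20 (SE 0.18), Rb1cc1 at -0.29 (SE 0.20), Ulk2 at -0.17 (SE 0.29), Atg13 at -0.33 (SE 0.19) and Atg101 at 0.16 (SE 0.19). Uvrag (-0.52, SE 0.21), Atg12 (-0.58, SE 0.27), Lamp1 and Gabarapl1 had values of over 0.5 in size. At an unadjusted p under 0.05 in this fit there were 3 of 40 members, Gabarapl1 higher (2.5%, beside 5.82% of all genes) and Uvrag and Lamp1 lower (5%, beside 5.19%). After adjustment 0 of 40 passed in edgeR, beside 0.00780% of all genes. The signs of Pik3r4 (0.10), Atg2b (0.27), Map1lc3a (-0.10), Gabarap (-0.10) and Gabarapl2 (-0.11) were turned by the removal.

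**Figure D4:**
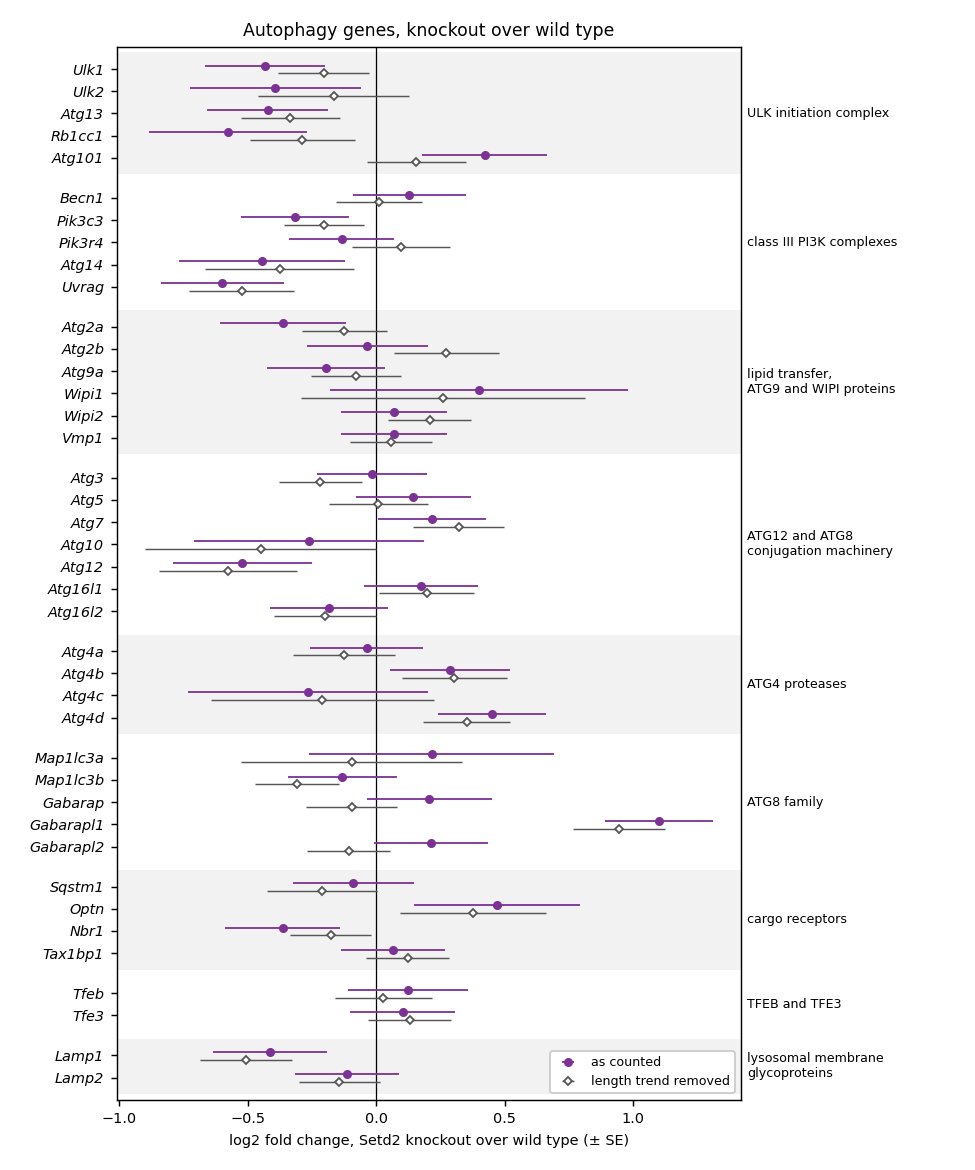
Log2 fold change, Setd2 knockout over wild type, of each autophagy gene as counted (purple circles) and with the length trend removed (open diamonds), each with its SE, grouped by role. Most genes lie within about 2 SE of 0 in both forms, and Gabarapl1 stands at 1.10 as counted and 0.94 with the trend removed.

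Other genes of the pathway were read from 7 lists. Of 148 tested genes, 0 passed over all genes in edgeR, 1 was higher and 4 lower at an unadjusted edgeR p under 0.05 (0.676% and 2.70%, beside 6.23% of all genes higher and 5.73% lower), and 1 passed in DESeq2 (0.676%, beside 1.44% of all genes). Of 18 further genes of autophagosome formation, 14 were below 0 with a median of -0.28, or -0.08 with the length trend removed. Trp53inp1, a p53 target that binds ATG8 proteins, had the smallest p and was the 1 that passed in DESeq2 (adjusted p 0.0376). It stood at 129 and 83.1 CPM in knockout and at 173 and 278 CPM in wild type libraries (log2 -1.09, SE 0.32, edgeR adjusted p 0.384), and wild type replicate 6 was again the highest library. Of 13 further receptors of selective autophagy, 6 were above and 7 below 0 (median -0.02). Calcoco1, a receptor for endoplasmic reticulum and Golgi, stood at 17.2 and 11.97 against 22.2 and 48.3 CPM (-1.28, SE 0.39), and Retreg1 (FAM134B), a receptor that shapes endoplasmic reticulum for autophagy, at 32.8 and 38.0 against 45.4 and 57.2 CPM (-0.53, SE 0.23).

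The remaining lists, of regulators and of later steps, were mixed. Of 14 genes of autophagosome-lysosome fusion 9 were above 0 (median 0.11) and none passed at an unadjusted edgeR p, the smallest being that of the SNARE gene Vamp8 at 31.3 and 48.8 CPM in knockout against 26.8 and 27.9 CPM in wild type libraries (0.55, SE 0.26, or 0.16 with the length trend removed). Of 38 genes of mTORC1, AMPK and nutrient sensing, which set the start of autophagy, 19 were above and 19 below 0 (median -0.00018). The smallest p there was that of the Ragulator subunit gene Lamtor2, at 27.2 and 38.6 against 23.7 and 21.4 CPM (0.54, SE 0.24, or 0.10 with the length trend removed). Of 33 lysosomal hydrolases 15 were above 0 (median -0.03), and Ctsl, encoding cathepsin L, stood at 14.6 and 12.8 against 6.41 and 7.78 CPM (0.95, SE 0.28, unadjusted edgeR p 0.0106). Of 16 subunits of the proton pump that acidifies lysosomes 12 were above 0 (median 0.16, or 0.07 with the length trend removed), with the smallest p for Atp6v0c at 134 and 204 against 123 and 111 CPM (0.53, SE 0.26, or 0.24 with the length trend removed). Of 16 lysosomal membrane proteins and channels 13 were below 0 (median -0.07), and Slc38a9, an arginine sensor of mTORC1, stood at 21.8 and 14.5 against 26.3 and 36.8 CPM (-0.80, SE 0.29, or -0.39 with the length trend removed).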

How the data were processed

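Per the labels' protocols, TRIzol-extracted total RNA was sequenced on an Illumina HiSeq. Per the submitters' processing notes, the authors used Bowtie2 and RSEM with builds GRCm38.p6 and mm10, without versions. The authors deposited an expected count per gene and library. The other deposited value has no stated unit and was taken as FPKM, since lengths computed from it were, in the median, 0.993 of the annotated length for 1564 genes with 1 transcript. Deposited group averages were left out.

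Expected counts were rounded to whole numbers, filtered with filterByExpr at a minimum count of 10, scaled by TMM (factors 0.998, 0.949, 1.00 and 1.06 for knockout 9 and 12 and wild type 1 and 6) and tested by quasi-likelihood F test in edgeR 4.0.16 (robust, limma 3.58.1, R 4.3.3), with Benjamini-Hochberg adjustment over all genes. The SE came from the F statistic. Replicates differed beyond sampling noise (chi-square per degree of freedom 57.3 in knockout and 49.5 in wild type), so all were kept. The effective length is the count divided by FPKM and library total, and its trend was removed by a loess offset of span 0.5 per library. Fits were also run on simulated counts with known changes, drawn with a common dispersion (0.0678) shared by all genes. The spread in the data differs between genes, so this run does not give the power for these members, and its outcome is not used here. DESeq2 1.42.0 and limma-voom were alternatives. Of the gene IDs, 99.3% matched RefSeq of GRCm38.p6, which gave coordinates and promoters.

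The members, lists and tests were chosen with earlier results of these data known. Values in every library were given by rule for members with an unadjusted p under 0.05, an absolute log2 fold change of at least 0.5 or the highest FPKM of their role. From each related list the rule took up to 2 genes of smallest p in each direction or, with none under 0.05, the 1 of smallest p. Values in every library of other members were chosen after they were seen.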

Additional observations from a re-analysis of the deposited data

How the results depend on the processing

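No paired analysis was possible because the groups share no replicate numbers. No autophagy gene passed in edgeR under any of the other scalings, a minimum count of 50, the length trend removed or any library left out. Without a filter on low counts Gabarapl1 passed (adjusted p 0.0377), as it did in DESeq2, so 1 autophagy gene was called in each. Genes called higher and lower over the whole table numbered 1 and 0, against 48 and 33 without the filter, 88 and 97 in DESeq2, and between 0 and 98 and between 0 and 70 with a library left out (98 and 70 when wild type replicate 1 was dropped, 22 and 8 when replicate 6 of that group was, and none in either direction when knockout replicate 12 was). The members' median of -0.0355 was -0.0544 with upper-quartile factors, -0.1089 with library size only, -0.0261 without the filter, -0.0465 at a minimum count of 50, -0.1017 with the length trend removed, and between -0.0482 and -0.0091 with a library left out. With the length trend removed it was -0.0721 without the filter, -0.1204 at a minimum count of 50, and between -0.1698 and -0.0370 with a library left out. The cause of these shifts was not tested. Of 40 members, 22 kept their sign throughout (13 below 0, 9 above). With library size only Wipi2 was at -0.0107, Vmp1 at -0.0085 and Tax1bp1 at -0.0142. With the length trend removed the sign of Pik3r4 (0.0959), Atg2b (0.2732), Map1lc3a (-0.0956), Gabarap (-0.0956) and Gabarapl2 (-0.1077) turned. With a library left out Ulk2 ran from -0.78 to 0.15, Becn1 from -0.0016 to 0.27, Atg2b from -0.21 to 0.17, Atg9a from -0.40 to 0.0045, Wipi2 from -0.0286 to 0.17, Vmp1 from -0.0185 to 0.16, Atg3 from -0.14 to 0.12, Atg5 from -0.0166 to 0.33, Atg10 from -0.62 to 0.22, Atg4a from -0.14 to 0.0805, Map1lc3a from -0.0291 to 0.45, Map1lc3b from -0.25 to 0.0003, Gabarap from -0.0777 to 0.47, Sqstm1 from -0.31 to 0.18 and Tfeb from -0.0824 to 0.33. When a library was left out, the lone library of its group was assumed to vary like the other pair. With 2 libraries a group, the SEs of the members ran from 0.20 to 0.58, with a median of 0.23. Differences below about 0.5 could not be resolved even at the lowest SE. Larger ones were not excluded, since the 95% interval reached past 0.5 in at least one direction for all 40 members. Gabarapl1, at a log2 fold change of 1.10, did not pass in the main edgeR fit or in limma-voom.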
